A study of Mus musculus with 24 samples.

Results

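The complement genes described here are the C1q subunits C1qa, C1qb and C1qc, the components C3, C4b and Cfb, the inhibitor Serping1, and the receptor genes C3ar1, C5ar1 and Itgam, measured in mouse cortex. They were chosen by gene symbol, with the probe set of highest mean signal for each. Of 10 symbols, 9 were found, with 1 probe set each, among 22180 genes that carried a single symbol in the platform annotation. C3 had no probe set under its symbol there and is not analysed here.

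Complement is a set of secreted proteins and cell surface receptors that label cells, debris and microbes for removal. The classical pathway starts when C1q, built from 3 kinds of chain encoded by C1qa, C1qb and C1qc, binds its target. Its proteases then cleave C4 and C2, and the resulting enzyme cleaves C3, while factor B (Cfb) serves the alternative pathway, which also acts on C3. Serping1 encodes the C1 inhibitor, which blocks the C1 proteases. C3ar1 and C5ar1 encode receptors for the small fragments C3a and C5a, and Itgam encodes the alpha chain of complement receptor 3, which binds cleaved C3. In the brain, microglia are the main makers of C1q and carry complement receptor 3, and C1q and C3 take part in the removal of synapses.

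The samples were cortex from male mice aged 18 days, 3 per group. In the CBE groups, mice of the strains SV129, FVB, C57 (C57BL/6JOlaHsd) and C3H were injected intraperitoneally from day 8 to day 18 with CBE (conduritol B-epoxide, which inhibits the lysosomal enzyme deficient in Gaucher disease) at 25 mg per kg per day. The matching groups of the same 4 strains received PBS and served as healthy controls. CBE treatment is a chemical model of neuronopathic Gaucher disease, and the labels name no genotype beyond the strain. The tissue is described as a coronal brain section that contained the cortex, so other regions in it cannot be told apart. The labels number the mice of a group without naming litters, so p-values rest on the spread between samples within the 8 groups of these 24 samples.

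All values are log2 signal of a probe set, so a difference of 1 is a doubling. Levels of different genes are not comparable because probe sets differ in brightness. The median of all probe sets was 4.18, and array medians lay between 4.14 and 4.22. Of the marker lists, all 7 measured genes of excitatory cortical neurons had a mean above the median gene (4.49). No gene of 11 for monocytes and neutrophils, or of 8 for lymphocytes, reached it. C3H CBE array 1 stood above the other C3H CBE arrays for all 9 genes, so the C3H changes printed for these genes are given with and without it. In a tissue sample, more cells of a type and more RNA per cell cannot be told apart.

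C1qb and C1qc lie next to each other in the genome, with C1qa beside C1qc, and the sequences before the start sites of C1qb and C1qc are shown because these neighbours differed together between strains below. They are the 250 bases before the start in RefSeq, assembly GRCm38.p6, minus strand, at chr4:136886201-136886450 for C1qb and chr4:136892915-136893164 for C1qc. Capitals mark AGGAAGT or its reverse complement, a core of the motif of PU.1, a transcription factor of myeloid cells.
C1qb: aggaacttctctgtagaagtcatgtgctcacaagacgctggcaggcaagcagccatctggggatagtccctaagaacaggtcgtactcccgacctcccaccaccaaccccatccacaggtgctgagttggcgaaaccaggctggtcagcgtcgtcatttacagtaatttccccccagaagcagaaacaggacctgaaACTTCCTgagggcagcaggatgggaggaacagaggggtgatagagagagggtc
C1qc: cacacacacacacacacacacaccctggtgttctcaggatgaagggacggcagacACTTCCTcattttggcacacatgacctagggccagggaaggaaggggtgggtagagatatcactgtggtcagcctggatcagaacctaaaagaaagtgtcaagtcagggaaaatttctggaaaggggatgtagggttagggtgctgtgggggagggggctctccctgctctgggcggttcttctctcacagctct

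The capitals begin at position -53 before the C1qb start and at -195 before that of C1qc. On both strands, 7.69% of 32851 promoter windows of this length hold these letters. C5ar1 holds 2 matches and the windows of C3ar1 and Itgam hold 0. The letters TTCNNNGAA (gamma-activated site, in 7.02% of windows) and a paired interferon element (in 2.98%) were searched in the same way, and the windows of C1qb, C1qc, C3ar1, C5ar1 and Itgam hold neither. A match is a run of letters and was not tested as a binding site. Each window comes from a single reference assembly, so it cannot show sequence differences between the strains.

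The first comparison took the mean of the 4 strains' changes, from 12 CBE and 12 PBS mice, to ask which complement genes responded to CBE. Of the 9 genes, 7 rose: C4b, C1qb, C3ar1, C1qa, C1qc, Cfb and Serping1. Of all 22180 genes 0.609% rose. Itgam and C5ar1 did not pass the threshold. The median change of the 9 genes was 0.55, against -0.01 over all genes. C4b and C1qb had the highest folds, 2.34 and 1.90, and the lowest among those that rose was 1.26 for Serping1. All tests are from 1 limma fit across the whole table with Benjamini-Hochberg adjustment, and the threshold is an adjusted p of 0.05.

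The 3 C1q subunits rose by unequal amounts. C1qb (probe set 17431607) rose by 0.93 ± 0.11 (SE, adjusted p = 2.81e-05), C1qa (17431619) by 0.63 ± 0.11 (adjusted p = 0.00287) and C1qc (17431612) by 0.55 ± 0.09 (adjusted p = 0.000908). Each of the 3 was above its strain's PBS mean on 12 of 12 CBE arrays, as were C4b and C3ar1, and 0.546% of all genes met that condition. Whether the rise of C1qb exceeded that of its partners was not tested. Without C3H CBE array 1 the mean changes were 0.83 for C1qb, 0.54 for C1qa and 0.49 for C1qc, and all 3 kept their calls. C1qa lost its call when FVB was left out of the mean (adjusted p = 0.0688).

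C1qb showed the clearest single-strain change. In FVB it measured 8.92, 8.69 and 8.56 in CBE mice, against 7.36, 7.35 and 7.19 in PBS mice. The lowest CBE mouse was thus more than a full log2 unit above the highest PBS mouse. The rise was 1.42 ± 0.22, or 2.68-fold (adjusted p = 0.00241). It was the only one of the 9 genes past the threshold in FVB, where 0.135% of all genes rose. C1qb kept its FVB call in all 34 alternatives tried for it, with adjusted p from 8.42e-06 to 0.0328. Of these, 24 left out a single array, and arrays of other strains cannot move the FVB estimate itself.

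In C57, C1qb measured 9.64, 9.84 and 9.79 in CBE mice, against 8.79, 8.65 and 9.01 in PBS mice. The groups were apart, with a change of 0.94 ± 0.22 that missed the threshold (adjusted p = 0.069). In C3H, C1qb was at 9.43, 8.53 and 8.09 in CBE mice and at 7.74, 7.70 and 7.69 in PBS mice. The PBS mice were close together, while the CBE mice spanned more than a log2 unit. The change was 0.98 (adjusted p = 0.183), and 0.60 (adjusted p = 0.828) without C3H CBE array 1. In SV129, values of 8.61, 8.74 and 8.18 in CBE mice overlapped those of 8.36, 8.21 and 7.87 in PBS mice, with a change of 0.36 (95% interval -0.09 to 0.81).

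C1qa and C1qc followed the same order of strains as C1qb, with the highest change in FVB, then C3H, C57 and SV129. C1qa changed by 0.94 in FVB, 0.74 in C3H, 0.68 in C57 and 0.16 in SV129. C1qc changed by 0.78, 0.66, 0.63 and 0.15 in the same strains. In FVB, C57 and C3H the 3 CBE mice lay above the 3 PBS mice for both genes, and in SV129 they overlapped. None of these single-strain changes of C1qa and C1qc passed the threshold, with adjusted p from 0.0867 for C1qc in FVB to 0.807 for C1qa in SV129. The C3H changes were 0.37 for C1qa and 0.41 for C1qc without C3H CBE array 1. The place of C3H above C57 thus rested on that array. Without it C3H lay below C57 for both genes, and for C1qb, at 0.60 against 0.94.

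**Figure D1:**
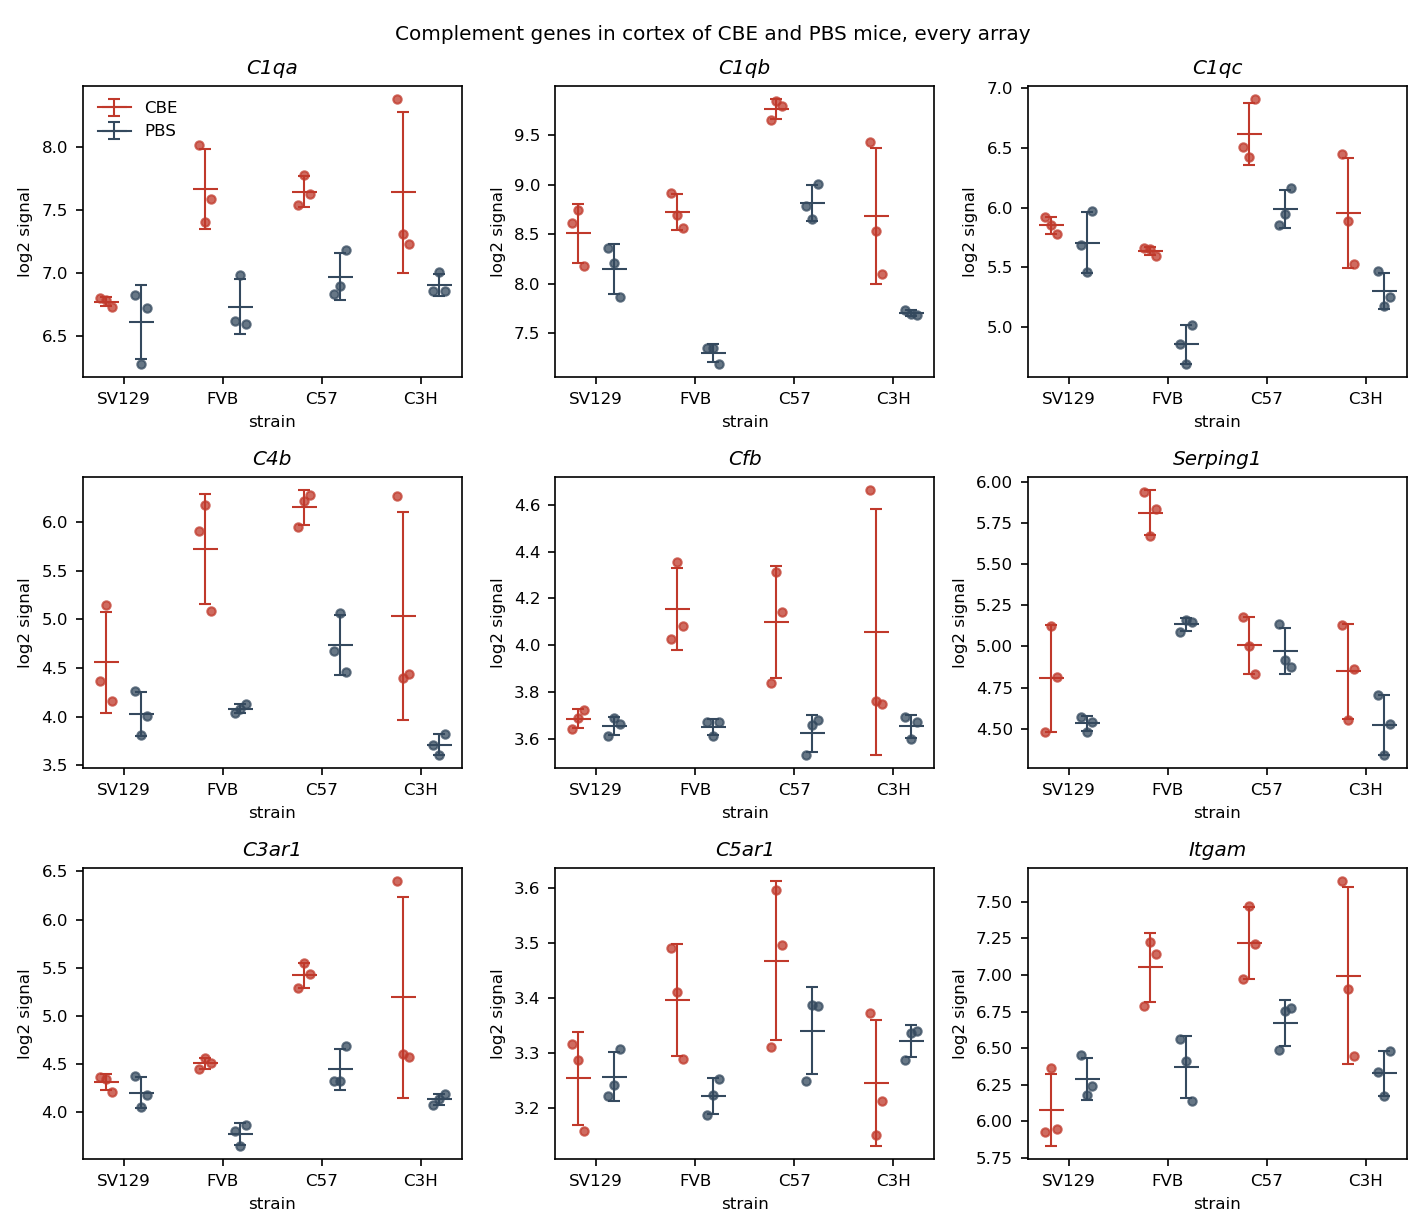
Log2 signal of the 9 measured complement genes in each strain, CBE mice in red to the left of PBS mice in dark grey. Points are single arrays, and the horizontal mark and bar are the mean and SD of 3. In FVB the CBE points lie above the PBS points for all 9 genes, and the highest C3H CBE point of each gene is array 1.

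C4b, whose product is cleaved right after C1 and joins the enzyme that acts on C3, had the highest mean change of the 9 genes. C4b (17343918) rose by 1.23 ± 0.18 (SE, adjusted p = 0.000354), and by 1.07 (adjusted p = 1.02e-05) without C3H CBE array 1. In FVB it measured 5.90, 6.18 and 5.09 in CBE mice, against 4.04, 4.08 and 4.13 in PBS mice. In C57 it was at 5.95, 6.22 and 6.28 in CBE mice, against 4.67, 5.07 and 4.46 in PBS mice. The groups were apart in both strains, although the FVB CBE mice spread over more than a log2 unit.

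In C3H, C4b was at 6.27, 4.40 and 4.44 in CBE mice and at 3.71, 3.61 and 3.82 in PBS mice. Array 1 carried much of that difference: the change was 1.32 with it and 0.71 without it. In SV129 the values were 4.36, 5.15 and 4.16 in CBE mice and 4.26, 3.81 and 4.01 in PBS mice, and the groups overlapped. Changes by strain were 1.64 in FVB (adjusted p = 0.0712), 1.41 in C57 (0.132), 1.32 in C3H (0.444) and 0.53 in SV129 (0.555). The PBS values lie around the median of all probe sets, where a rise can be compressed.

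C4a, a near-identical neighbour of C4b that is separated from it by Cyp21a1, has a probe set of its own (17343976). It changed by -0.02 ± 0.07 over the 4 strains (adjusted p = 0.962), with changes from -0.11 in C57 to 0.09 in SV129. Its group means lay between 3.58 and 3.71 in CBE mice and between 3.49 and 3.81 in PBS mice. The signal of the C4b probe set may still include transcripts of C4a, which these values cannot separate.

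Cfb (17344064), factor B of the alternative pathway, rose by 0.35 ± 0.08 (adjusted p = 0.0384). All 12 PBS mice lay between 3.53 and 3.69, while CBE mice reached 4.36 in FVB, 4.31 in C57 and 4.66 in C3H. In SV129 the CBE mice lay between 3.64 and 3.72, overlapping the SV129 PBS mice at 3.61 to 3.69. This narrow PBS range sits below the median of all probe sets. In C3H Cfb changed by 0.40, and by 0.10 without array 1. The call was lost when any of 19 single arrays was left out (adjusted p up to 0.0877), while without C3H CBE array 1 it held (adjusted p = 0.00352).

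Serping1 (17387517), the inhibitor that acts on the C1 proteases, followed another order of strains. It rose by 0.33 ± 0.07 (adjusted p = 0.0284) on average. In FVB it measured 5.94, 5.67 and 5.83 in CBE mice, against 5.09, 5.16 and 5.15 in PBS mice. In C57 it measured 5.18, 5.01 and 4.83 in CBE mice, against 5.13, 4.92 and 4.87 in PBS mice. FVB mice were thus separated by treatment and C57 mice were not.

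The Serping1 change was 0.68 ± 0.14 in FVB (adjusted p = 0.065), 0.33 in C3H, 0.27 in SV129 and 0.03 in C57 (95% interval -0.27 to 0.33). The C3H change was 0.19 without C3H CBE array 1. C57 had the smallest Serping1 change of the 4 strains, while its changes in the other 6 genes that rose in the mean were 0.48 to 1.41. The FVB minus C57 difference of change was 0.65 (95% interval 0.23 to 1.07) with a limma adjusted p of 0.999, where 0.00451% of all genes passed. The mean rise of Serping1 lost its call without any of 12 single arrays (adjusted p up to 0.0633) and was 0.21 (adjusted p = 0.393) with FVB left out.

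Among the receptor genes, C3ar1 rose and Itgam and C5ar1 did not pass the threshold. C3ar1 (17470616), the receptor for C3a, rose by 0.72 ± 0.14 (adjusted p = 0.0095), and by 0.57 (adjusted p = 4.47e-07) without C3H CBE array 1. In C57 it was at 5.29, 5.55 and 5.43 in CBE mice, against 4.32, 4.32 and 4.69 in PBS mice. In FVB it was at 4.45, 4.56 and 4.51 in CBE mice, against 3.81, 3.65 and 3.87 in PBS mice. Both strains showed separate groups with little spread.

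In C3H, C3ar1 measured 6.40, 4.60 and 4.58 in CBE mice, against 4.07, 4.14 and 4.18 in PBS mice. Array 1 stood far above its group: the C3H change was 1.06 with it and 0.46 without it. SV129 values of 4.37, 4.35 and 4.21 in CBE mice overlapped 4.38, 4.06 and 4.18 in PBS mice. The call of C3ar1 was lost in an ordinary linear model (adjusted p = 0.06) and when C57 (0.104) or C3H (0.126) was left out of the mean.

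Itgam (17483577), the alpha chain of complement receptor 3, changed by 0.42 ± 0.10 over the 4 strains (adjusted p = 0.0699). In SV129 it was at 5.93, 6.36 and 5.95 in CBE mice, against 6.45, 6.18 and 6.24 in PBS mice, a change of -0.21 (95% interval -0.65 to 0.22). In FVB it was at 6.79, 7.23 and 7.14 in CBE mice, against 6.56, 6.41 and 6.14 in PBS mice. In C57 it was at 6.98, 7.47 and 7.21 in CBE mice, against 6.49, 6.75 and 6.77 in PBS mice. The groups were apart in FVB and C57, where the changes were 0.68 and 0.55, and overlapped in SV129.

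In C3H Itgam changed by 0.67, and by 0.34 without array 1, and its groups overlapped. With SV129 left out of the mean, Itgam changed by 0.63 (adjusted p = 0.00751). On all arrays and strains the call was gained after quantile normalization (adjusted p = 0.0391), with an intensity trend in the prior variance (0.0475) and with array weights (0.0483). It was also gained without C3H CBE array 3 (adjusted p = 0.00536). C5ar1 (17486864), the receptor for C5a, lay between 3.15 and 3.60 in CBE mice and between 3.19 and 3.39 in PBS mice. This is near the lower end of the scale, where a change can be hidden, and it changed by 0.06 ± 0.04 (adjusted p = 0.666, 95% interval -0.03 to 0.14).

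Setting C1q against the other genes, the mean changes of the subunits, 0.55 to 0.93, lay below that of C4b (1.23) and around that of C3ar1 (0.72). They lay above those of Itgam (0.42), Cfb (0.35), Serping1 (0.33) and C5ar1 (0.06). C4b had the highest change of the 9 genes in all 4 strains. C1qb came next in SV129 and FVB, and C3ar1 in C57 and C3H. Without C3H CBE array 1, C1qb was next after C4b in C3H as well. These orders are a description of fitted differences and were not tested.

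**Figure D2:**
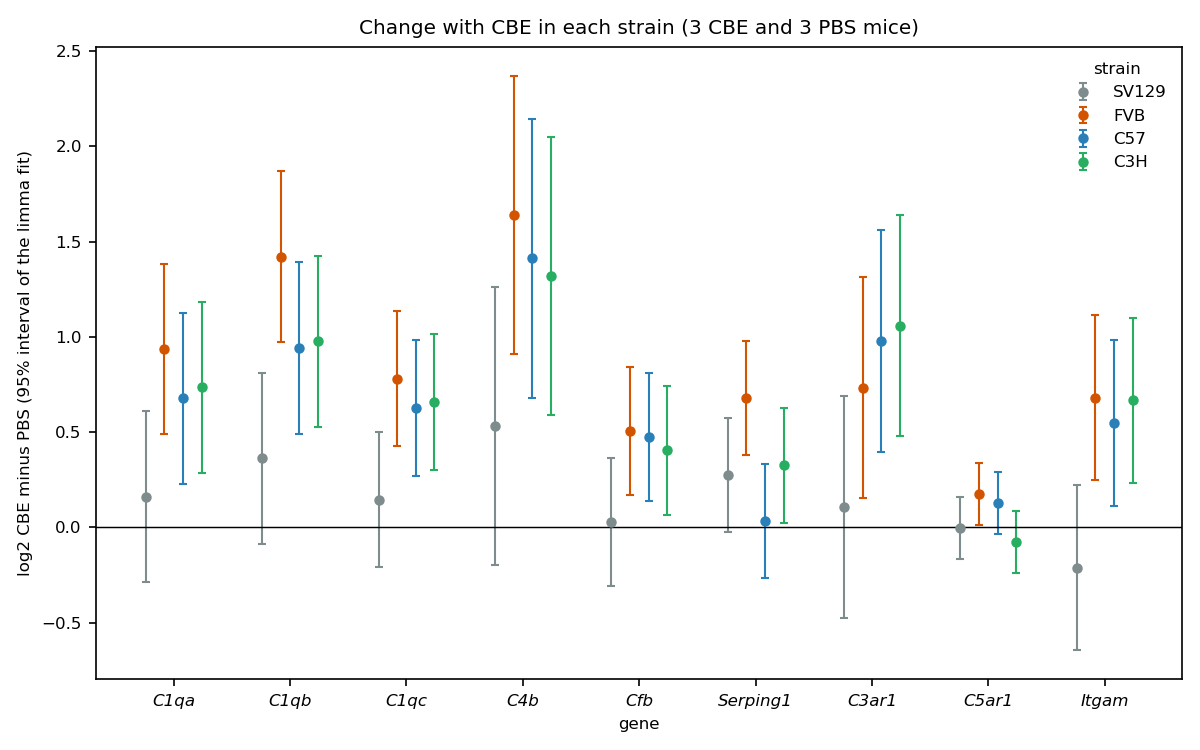
Change with CBE, log2 CBE minus PBS, for each gene and strain (3 CBE and 3 PBS mice), with the 95% interval from the limma fit. SV129 (grey) has the lowest estimate for C1qa, C1qb, C1qc, C4b, Cfb, C3ar1 and Itgam, and C57 (blue) has it for Serping1.

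The next comparison asked whether the change differed between strains. In SV129 the change was the smallest of the 4 for 7 of the 9 genes, all but Serping1 and C5ar1, with the other 3 strains positive. Of all genes 7.2% show that arrangement. No gene of the 9 passed in SV129 by limma, with 0 at an unadjusted p below 0.05 (13% of all genes), and 0.0135% of all genes rose there. In C57 and C3H 0 of 9 passed as well, where 0.316% and 0.0361% of all genes rose. At an unadjusted p below 0.05 they had 7 and 8 genes, against 5.78% and 5.02% of all genes. In FVB all 9 had an unadjusted p below 0.05, against 6.27% of all genes. The SV129 and C3H counts at this unadjusted level depended on C3H CBE array 1. In the limma fit without it, C1qb and C4b fell below that level in SV129. Cfb, Itgam and Serping1 in C3H then no longer did, and the same genes as before did so in FVB and C57. The CBE mice lay wholly above the PBS mice for 9 genes in FVB, 7 in C57, 6 in C3H and 0 in SV129, against 5.09%, 5.82%, 4.5% and 6.52% of all genes.

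The differences between strains were not past the threshold. By the F-test of equal changes 0 of 9 genes passed, with 3 at an unadjusted p below 0.05 (C1qb, Itgam and Serping1), against 6.57% of all genes, and 0.00902% of all genes passed. Of 54 differences between strain pairs 0 passed, and 12 had an unadjusted p below 0.05, against 6.21% of all genes per pair on average. The 3 pairs with SV129 held 10 of these 12, and over all genes such pairs also ran higher, at 7.69% to 9.1%, against 3.75% to 4.67% for the pairs without SV129. The 2 largest were SV129 minus FVB in C4b, at -1.11 ± 0.50 (adjusted p = 0.59), and in C1qb, at -1.06 ± 0.30 (adjusted p = 0.44). Of all genes 0.0361% passed for SV129 minus C57, 0.00451% for each pair among FVB, C57 and C3H, and 0 genes for SV129 minus FVB or C3H.

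A contrast chosen after the data were seen set the mean change of FVB, C57 and C3H against that of SV129. Itgam differed by 0.84 (95% interval 0.34 to 1.34, adjusted p = 0.239) and C1qb by 0.75 (0.23 to 1.27, adjusted p = 0.318). The intervals of C1qa, C1qc, C4b, Cfb and C3ar1 also lay above 0, making 7 of 9 at an unadjusted p below 0.05, against 10.3% of all genes, while those of C5ar1 and Serping1 did not. By limma 0 of 9 genes passed, against 3 of all genes (0.0135%). The contrast was picked because SV129 was seen to be lowest, so its direction is a description. Without C3H CBE array 1 the differences of all 9 genes were smaller, at 0.74 for Itgam, 0.63 for C1qb and 0.72, from 0.93, for C4b. In that fit C3ar1 passed in this contrast (0.62, from 0.82, adjusted p = 0.0488). It also passed in the F-test of the 4 strains' changes, with an adjusted p of 0.0339. Over all genes 13 (0.0586%) then passed in the contrast and 25 (0.113%) in the F-test. Its changes were then 0.98 in C57, 0.73 in FVB, 0.46 in C3H and 0.11 in SV129.

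That array also decided how many genes passed within a strain, through the spread shared by the 8 groups. Without it 7 of 9 genes passed in FVB (all but Itgam and C5ar1) and 6 of 9 in C57 (all but Itgam, C5ar1 and Serping1), with the FVB and C57 changes themselves unaltered. Over all genes 0.374% rose in FVB and 0.6% in C57 in that fit. In C3H 0 passed without it and in SV129 0. Without C3H CBE array 3 instead, C1qb, C1qc, C3ar1 and Itgam passed in C3H, with C1qb at 1.27 (adjusted p = 0.00638), where 0.221% of all genes rose in C3H.

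The PBS mice were compared to show how complement levels differ between strains without CBE. C1qb and C1qc differed widely and in the same order of strains, C57 highest, then SV129, C3H and FVB, while C1qa did not pass. By the F-test of the 4 PBS groups, C1qb (adjusted p = 0.00028), C1qc (0.000429) and Serping1 (0.00721) passed, 3 of 9 genes, against 13% of all genes. At an unadjusted p below 0.05 there were also 3 of 9, against 26% of all genes, so that count is near the share of all genes. The strain's transcript level and how well its sequence binds the probe set cannot be told apart in these values.

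C1qb averaged 8.82 ± 0.18 (SD, n = 3) in C57 PBS mice, 8.15 ± 0.25 in SV129, 7.71 ± 0.03 in C3H and 7.30 ± 0.09 in FVB, a 2.86-fold range. Of its strain pairs, FVB minus C57 (-1.51 ± 0.22, adjusted p = 0.000105), C57 minus C3H (1.11 ± 0.22, adjusted p = 0.00236) and SV129 minus FVB (0.84 ± 0.22, adjusted p = 0.0279) passed. SV129 and its neighbours C57 (adjusted p = 0.0624) and C3H (0.416), and C3H and FVB (0.469), did not differ past the threshold.

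C1qc averaged 5.99 ± 0.16 in C57 PBS mice, 5.71 ± 0.25 in SV129, 5.30 ± 0.15 in C3H and 4.85 ± 0.16 in FVB (SD, n = 3 each), a 2.20-fold range. The same strain pairs passed for it as for C1qb, with FVB minus C57 at -1.14 ± 0.17 (adjusted p = 0.000186). C1qa averaged 6.97 ± 0.19 in C57, 6.91 ± 0.09 in C3H, 6.74 ± 0.22 in FVB and 6.61 ± 0.29 in SV129, a 1.28-fold range (F-test adjusted p = 0.589). The FVB minus C57 difference of C1qa was -0.24 (95% interval -0.68 to 0.21), an interval that does not reach the C1qb and C1qc differences.

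FVB therefore had the lowest PBS level of C1qb and C1qc and the highest change with CBE. In CBE mice C1qb averaged 9.76 ± 0.10 in C57, 8.72 ± 0.18 in FVB, 8.69 ± 0.68 in C3H and 8.51 ± 0.30 in SV129. The FVB CBE mice thus averaged less than the C57 PBS mice did, 8.72 against 8.82. A low PBS mean also enters the change itself with opposite sign, so the 2 orders are not independent.

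Serping1 had a different order. It averaged 5.13 ± 0.04 in FVB PBS mice, 4.97 ± 0.14 in C57, 4.53 ± 0.04 in SV129 and 4.52 ± 0.18 in C3H (SD, n = 3 each). FVB exceeded C3H by 0.61 ± 0.14 (adjusted p = 0.0254), and SV129 lay below FVB by the same margin, at -0.60 ± 0.14 (adjusted p = 0.0185). C57 lay between these levels without a pair past the threshold. FVB thus combined the highest PBS level of Serping1 with its highest change.

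The other 5 genes had smaller or less certain PBS differences. C4b ranged from 3.72 ± 0.11 in C3H to 4.73 ± 0.31 in C57 (F-test adjusted p = 0.203), and C3ar1 from 3.77 ± 0.11 in FVB to 4.44 ± 0.21 in C57 (adjusted p = 0.369). Without C3H CBE array 1, which is no PBS array but adds to the shared spread, both passed (adjusted p = 0.0247 and 0.000661). In that fit 13.3% of all genes passed the F-test of PBS levels. Itgam, C5ar1 and Cfb spanned 0.38, 0.12 and 0.03 log2 units. In total 8 of 54 strain pair differences of PBS level passed, all for C1qb, C1qc and Serping1. Of all genes, 3.88% passed for SV129 minus FVB, 7.91% for FVB minus C57, 6.7% for C57 minus C3H, 2.28% for FVB minus C3H, 7.72% for SV129 minus C57 and 2.34% for SV129 minus C3H.

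**Figure D3:**
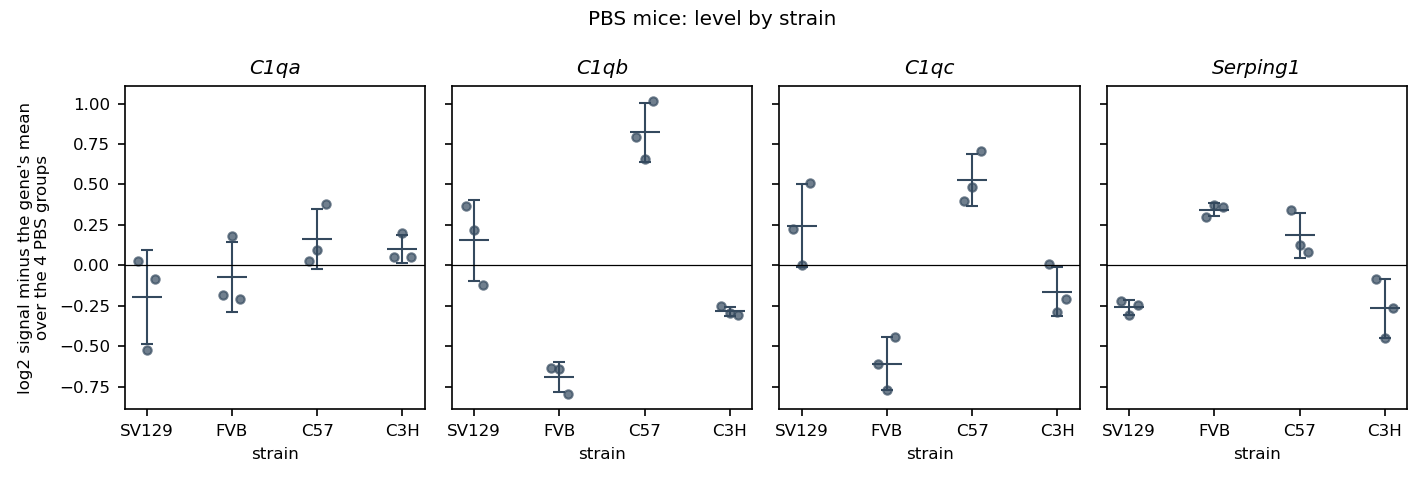
Log2 signal in PBS mice minus each gene's mean over the 4 PBS groups, for the C1q subunits and Serping1. Points are single arrays, and marks and bars are the mean and SD of 3. C1qb and C1qc are highest in C57 and lowest in FVB, C1qa varies little, and Serping1 is highest in FVB.

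Other genes of the complement system were examined from a list of 49, of which 45 were measured. By limma 0 of the 45 passed upward or downward, in the mean of 4 strains or in any strain, with 7 at an unadjusted p below 0.05 in the mean. Of all genes 0.609% rose in the mean and 10.7% had an unadjusted p below 0.05, so 0 of 45 is near the share of all genes. Their median change was 0.01. C1ra and C1s1, the proteases bound to C1q, changed by 0.00 ± 0.06 and 0.03 ± 0.06, and C2, the partner of C4, by 0.09 ± 0.04, none of them past the threshold. All 3 lay below the median gene, at means of 3.50, 3.86 and 3.31, where a change can be hidden.

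The nearest to the threshold were Itgax, the alpha chain of complement receptor 4 and a neighbour of Itgam in the genome, and Clu, a secreted chaperone that restrains the terminal complex. Itgax changed by 0.44 ± 0.11 (adjusted p = 0.054) and its CBE mice lay above the PBS mice in all 4 strains. Of all genes, 4.5% to 6.52% were so separated in a single strain, and 0.442% in FVB, C57 and C3H together. The share for all 4 strains is not given. In SV129 the gap was narrow, with the lowest CBE mouse at 3.45 and the highest PBS mouse at 3.41. The SV129 change of Itgax was 0.14 (limma adjusted p = 0.837). Its values were low, between 3.45 and 4.90 in CBE mice and between 3.28 and 3.65 in PBS mice. The 4.90 was C3H CBE array 1, with the other C3H CBE arrays at 3.90 and 3.53. Clu changed by 0.12 ± 0.03 (adjusted p = 0.106) at a group mean of 9.74 or more. Itgb2, the beta chain that pairs with Itgam and Itgax, was named after its values were seen and changed by 0.51 ± 0.16 (adjusted p = 0.181), with C3H CBE array 1 at 6.34 and the other C3H CBE arrays at 4.46 and 4.42. Csmd3 was nearer the threshold than Itgb2, with a change of -0.20 ± 0.05 (adjusted p = 0.122). Among genes at an unadjusted p below 0.05 in the mean, Csmd3 and Mbl2 (-0.147 ± 0.055, adjusted p = 0.298) were lower in CBE mice and the others higher.

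**Figure D4:**
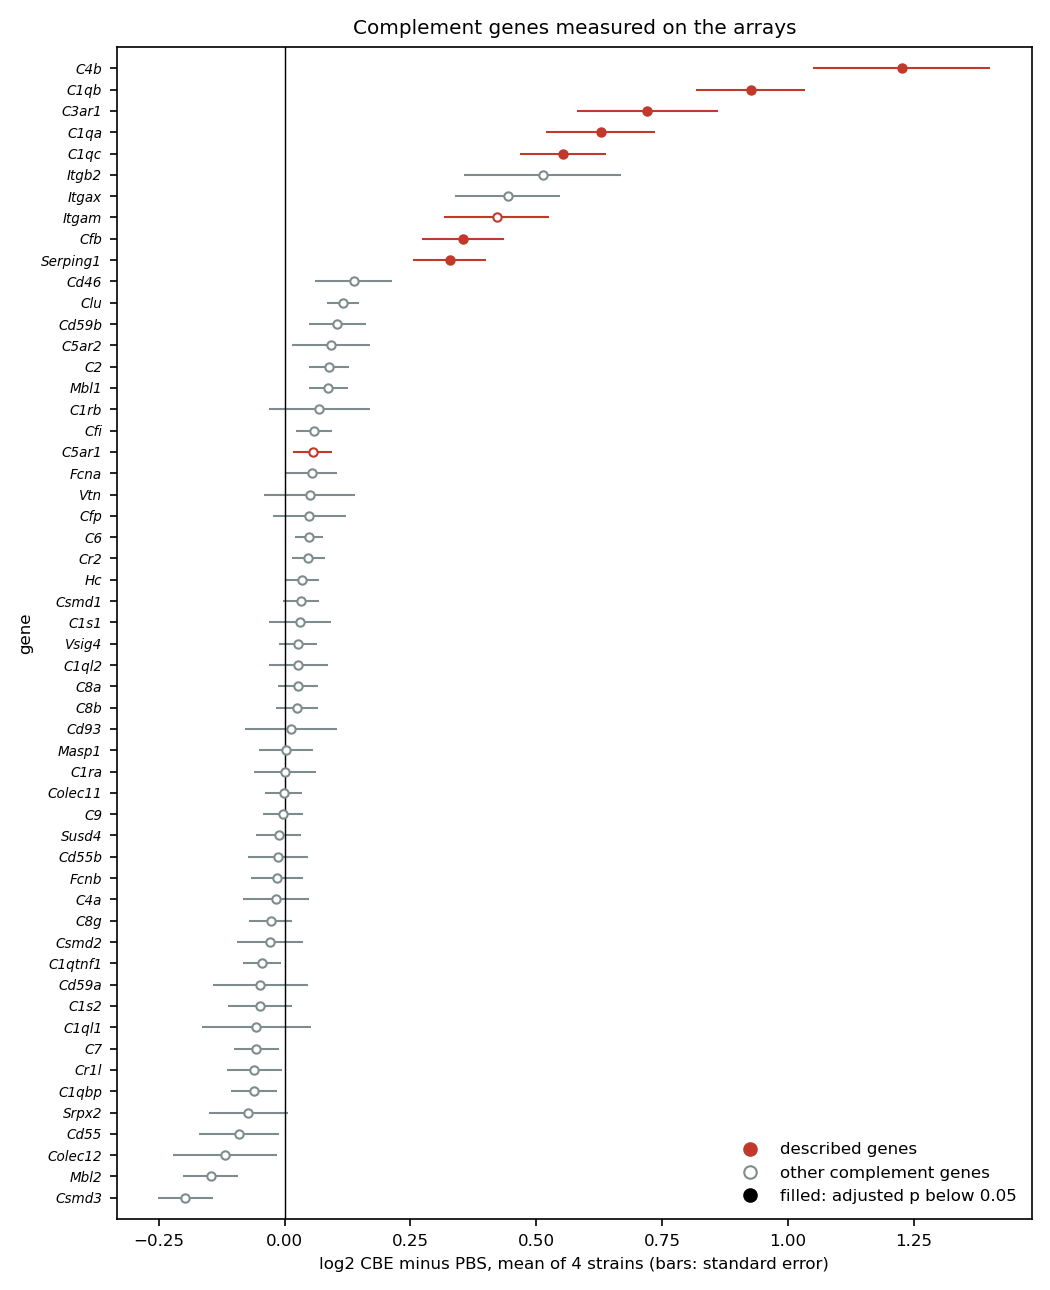
Log2 CBE minus PBS, mean of 4 strains, with its standard error, for the 9 genes described (red) and 45 other complement genes (grey), ordered by change. Filled points have an adjusted p below 0.05; all 7 are among the 9 genes described, and C4b and C1qb lie farthest to the right.

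Markers of the cells that make complement were read beside these changes. In homeostatic microglia genes, 1 of 12 measured members rose, Csf1r by 0.29 ± 0.07 (adjusted p = 0.0334), against 0.609% of all genes. The Csf1r call was made with C3H CBE array 1, at 9.23, while the other C3H CBE arrays were at 8.76 and 8.69. All 12 had estimates above 0, with a median change of 0.13, against 0.55 for the 9 complement genes. Some barely moved, with P2ry13 at 0.002, Gpr34 at 0.004 and Sall1 at 0.021. At an unadjusted p below 0.05 there were 5 of the 12, against 10.7% of all genes. Csf1r apart, these were Selplg (0.24), Siglech (0.22), Aif1 (0.20) and Tmem119 (0.10), while Cx3cr1 and P2ry12 changed by 0.16 (adjusted p = 0.525) and 0.06 (adjusted p = 0.769). The summed signal of the 12 genes was 1360 to 1620 in CBE mice against 1260 to 1660 in PBS mice of SV129. It was 1650 to 1870 against 1450 to 1620 in FVB, and 1850 to 2030 against 1600 to 1860 in C57. In C3H it was 1770 to 2340, with a median of 1790, against 1530 to 1710. No comparison of the sums without C3H CBE array 1 is given. The part of the summed signal in the complement changes was not tested.

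Lists of other possible sources did not move with CBE past the threshold. Of 8 perivascular macrophage genes, 11 of monocytes and neutrophils, 8 of lymphocytes and 8 of astrocytes, 0 passed in each by limma, with median changes of 0.01, 0.02, 0.03 and 0.02. At an unadjusted p below 0.05 these lists had 2, 1, 0 and 1 genes, against 10.7% of all genes. Monocyte and neutrophil genes had means of 3.07 to 4.42, with Ccr2 at 3.48 and S100a8 at 3.40. The 7 genes of plasma and liver had a median change of 0.04, and the lists of oligodendrocytes, endothelium, meninges, choroid plexus and excitatory neurons had medians between -0.09 and 0.07, with 0 genes past the threshold and 0 or 1 per list at an unadjusted p below 0.05. In SV129 the summed signal of 6 thalamus genes was 689 to 854 in CBE mice against 1040 to 1270 in PBS mice. Of the 6, Ntng1 fell by 0.82 ± 0.13 in SV129 (adjusted p = 0.01), the only marker gene past the threshold in a single strain, and 2 of the 6 had an unadjusted p below 0.05 there. The part of this in the SV129 values was not tested.

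The genes most like each complement gene were found by the root mean square difference of the 8 group means, after each gene's own mean was removed. The C1qa pattern was nearest to Ms4a6c (0.09 log2 units), Epsti1 (0.13) and Tyrobp (0.14), against a variation of C1qa itself of 0.43. C1qb was nearest to Parp12 (0.24), Irf9 (0.27) and Lgals9 (0.29), against its own 0.70. C1qc was nearest to Man2b1 (0.16), Ctsh (0.21) and Tlr7 (0.22), against 0.48.

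C4b was nearest to Isg15 (0.18), Iigp1 (0.22) and H2-K1 (0.24), against its own 0.80. The lists of C1qa, C1qb, C1qc and C4b shared no gene. Among the 9 genes themselves, C1qa was nearest to Itgam (0.15), C1qb to C1qc (0.27) and C1qc to C3ar1 (0.26), and C1qa lay 0.51 from C1qb and 0.44 from C1qc. These distances mix strain and treatment and are a description over 8 group means.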

How the data were processed

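Signal was measured on Affymetrix arrays from 24 cortex samples. Per the submitters' processing notes, the authors used Partek and RMA (robust multi-array average); versions and genome build are not given here. The deposited log2 values of 41034 probe sets were used as given; the base of the logarithm was inferred from their range, 2.43 to 14.09. Symbols came from the platform annotation: 23521 probe sets had 1 symbol, 1814 several and 15699 none given, and the highest-mean probe set per symbol left 22180 genes, with no filter on dim ones.

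One limma 3.58.1 fit in R 4.3.3 had 1 mean for each of 8 groups (residual degrees of freedom 16, prior 5.1). Contrasts gave the change with CBE per strain, its mean, differences of change, and PBS levels, two-sided, adjusted over 22180 genes within a contrast. The number of arrays limits precision: the median SE was 0.05 for the mean of strains and 0.1 within a strain.

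The genes and lists were chosen with earlier results of these data known. All 10 genes were named. Of other complement genes those past the threshold were named, or the 2 nearest it. C4a, C1ra, C1s1, C2, Itgb2, Csmd3 and Mbl2 were added afterwards. Of each marker list, up to 2 genes past the threshold were named. Cx3cr1, P2ry12, P2ry13, Gpr34, Sall1, Selplg, Siglech, Aif1, Tmem119, Ntng1, Ccr2 and S100a8 were added afterwards. The 3 most alike genes were taken for C1qa, C1qb, C1qc and C4b. The alternatives were other probe set, normalization, filter and variance choices and leaving out each array. The procedure was tested on simulated data, where recovery of log2 changes of 0.5, 1 and 2 was read for the mean of 4 strains. Promoter sequences were those RefSeq gives for 6 of the 10 genes.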

Additional observations from a re-analysis of the deposited data

How the results depend on the processing

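The alternatives were other processing choices and fits leaving out a single array, the latter 24 for each gene and comparison. Leaving out an array of another strain cannot move a single-strain estimate, only its SE and adjusted p. Over these 1547 single-gene values, 1449 kept their direction and side of the threshold, 45 lost a call, 46 gained one and 7 changed sign. All 7 were for changes that were not called. Those were, in SV129, Cfb with arrays centred on their median (-0.021) or quantile normalized (-0.007), C1qa without PBS array 2 and C5ar1 without PBS or CBE array 3, and, in C57, Serping1 without PBS array 3 or CBE array 1. Leaving out single arrays gave -0.003 to 0.271 for C1qa, -0.035 to 0.045 for C5ar1 and -0.055 to 0.118 for Serping1. C1qb, C1qc and C4b kept their mean rise in all 37 alternatives each.

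Of the 9 genes, 7 rose in the mean of 4 strains; 4 did in an ordinary linear model, 4 with FVB left out of the mean and 4 with C3H left out, while 8 did, Itgam included, after quantile normalization, with an intensity trend or with array weights. Leaving out single arrays gave 5 to 8. In FVB 1 gene rose, and 3 did after quantile normalization, 2 with an intensity trend in the prior variance and 5 in a fit of the strain's own 6 arrays, with 1 to 7 when single arrays were left out. In C57 0 rose, and 1, 1, 2 and 4 did after quantile normalization, with the intensity trend, with array weights and with its own 6 arrays, with 0 to 6 when single arrays were left out. Leaving out single arrays gave 0 to 4 in C3H, 0 in SV129, 0 to 1 for differences of change and 3 to 5 for PBS levels. In the contrast of FVB, C57 and C3H against SV129, added after the data were seen, 0 genes passed, and 1 without C3H CBE array 1. Apart from fits with fewer arrays or strains, the cause was not tested.

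Replicate numbers gave no clear sign of pairing. Of 12 same-numbered pairs, 2 had a correlation of deviations above 0.1 (-0.19 to 0.20), and 5 of 12 CBE arrays correlated best with their own number. With 3 arrays per group this check cannot exclude pairing or shared litters. With strain and number as a replicate block, 3 genes rose in FVB and 1 in C57.

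Counts over all genes moved more. In SV129 25 genes passed, and 143 with arrays centred, 60 among genes above the median level, 7 in an ordinary linear model and 4 with its own arrays. In C57 72 passed, and 36 in an ordinary linear model and 112 with array weights. In FVB 30 passed, and 58 with its own arrays. In C3H 8 passed, and 13 after quantile normalization or with the trend, 2 in an ordinary linear model and 0 with its own arrays. In the mean 161 passed, and 106 without FVB and 88 without C57. For differences of change 2 passed, and 0 to 6 under other choices with all arrays. Single arrays moved the counts to 7 to 219 in SV129, 30 to 136 in C57, 25 to 85 in FVB, 3 to 52 in C3H, 132 to 244 in the mean and 0 to 25 for differences of change, the 25 without C3H CBE array 1. Cfb and C5ar1 lie below the median gene level, which limits what can be seen of them.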
